A study of Mus musculus with 6 samples.

Results

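The AP-1 family was followed here as 9 genes, namely Fos, Fosb, Fosl1 and Fosl2 of the FOS subfamily, Jun, Junb and Jund of the JUN subfamily, and Batf and Batf3 of the BATF subfamily. They were taken by gene symbol from a table of 25865 genes. The samples were 3 treated with toyocamycin and 3 with vehicle (Control), all of group 2 innate lymphoid cells (ILC2s) sorted from the large intestine of C57BL/6 mice. In both groups the cells had first grown for 5 days with 10 ng/mL each of IL-33, IL-25, IL-7 and IL-2, and toyocamycin was then present for 16 h. This compound is a nucleoside that resembles adenosine, and it is known to inhibit IRE1, an RNase that senses stress in the endoplasmic reticulum, and to block ribosomal RNA processing. The sources used here do not give its dose, the time in vehicle, the age of the mice or how many mice gave cells. They do not say whether the 3 samples of a group came from separate animals or cultures. The p-values therefore rest on a spread between samples that may be only technical.

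AP-1 is a pair of basic leucine zipper (bZIP) proteins that bind DNA together. A FOS protein needs a JUN partner, whereas JUN proteins can also pair with each other. BATF proteins pair with JUN proteins, lack a domain that activates transcription, and act with the factors IRF4 and IRF8 in lymphocytes. FOS and JUN genes are switched on within minutes by MAP kinase signals, and several of their mRNAs are short-lived. In ILC2s and Th2 cells, AP-1 acts at cytokine genes beside GATA3.

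Of the 9 genes, Fosl2 rose and Fos, Fosb, Jun, Jund, Junb and Batf fell in toyocamycin-treated ILC2s relative to Control. Fosl2, which encodes FRA-2, was 6.19-fold higher, and Fos, which encodes c-FOS, was 6.26-fold lower. Junb and Batf differed least among the called genes, 1.13-fold and 1.12-fold lower. Fosl1 did not pass the test and Batf3 had no read in any sample. A call is an adjusted p under 0.05 in limma, a linear model fitted to log2 values of all 16223 genes with a mean of at least 1 normalised read count. Among all these genes 65.9% were called, 32.8% as higher and 33.1% as lower. Of the 8 AP-1 genes tested, 7 were called, 1 higher and 6 lower. Their median log2 change was -0.70, and that of all genes tested was -0.03.

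The upstream sequences are shown for the 5 AP-1 genes whose log2 change was largest in size, Fosl2, which rose, and Fos, Fosb, Jund and Jun, which fell. Each runs from 250 bases before to 50 bases after a start in RefSeq (GRCm38.p6, which is mm10), 5′ to 3′ on the gene's strand. For Fosb, on the minus strand, the start used lies inside the gene's RefSeq span, which begins at 19310118. For the other genes shown it is the start of that span. Capitals mark every match, on either strand, to one of the motifs searched.
Fos, chr12:85473640-85473939, plus strand: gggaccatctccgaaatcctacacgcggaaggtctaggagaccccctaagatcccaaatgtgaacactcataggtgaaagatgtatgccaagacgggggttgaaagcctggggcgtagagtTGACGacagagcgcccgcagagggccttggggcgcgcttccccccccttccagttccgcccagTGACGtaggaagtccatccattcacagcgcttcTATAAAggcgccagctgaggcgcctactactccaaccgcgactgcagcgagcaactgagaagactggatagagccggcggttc
Fosb, chr7:19309996-19310295, minus strand: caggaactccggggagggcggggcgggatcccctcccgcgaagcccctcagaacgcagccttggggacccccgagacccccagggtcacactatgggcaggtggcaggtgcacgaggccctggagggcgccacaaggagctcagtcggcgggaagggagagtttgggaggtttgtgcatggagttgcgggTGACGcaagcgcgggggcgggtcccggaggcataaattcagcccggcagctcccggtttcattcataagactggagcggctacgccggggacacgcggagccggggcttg
Jun, chr4:95052173-95052472, minus strand: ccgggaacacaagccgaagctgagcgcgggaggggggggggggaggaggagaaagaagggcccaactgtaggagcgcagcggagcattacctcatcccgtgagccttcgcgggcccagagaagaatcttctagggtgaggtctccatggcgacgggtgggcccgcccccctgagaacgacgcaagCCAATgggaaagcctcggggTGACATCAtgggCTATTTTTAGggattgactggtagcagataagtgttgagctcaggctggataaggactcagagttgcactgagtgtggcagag
Jund, chr8:70697489-70697788, plus strand: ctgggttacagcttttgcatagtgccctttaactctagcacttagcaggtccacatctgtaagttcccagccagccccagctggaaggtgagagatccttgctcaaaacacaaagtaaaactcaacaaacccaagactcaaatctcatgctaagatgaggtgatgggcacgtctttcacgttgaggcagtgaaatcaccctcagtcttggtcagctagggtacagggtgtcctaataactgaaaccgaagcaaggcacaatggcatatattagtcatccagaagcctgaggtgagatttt
Fosl2, chr5:32136222-32136521, plus strand: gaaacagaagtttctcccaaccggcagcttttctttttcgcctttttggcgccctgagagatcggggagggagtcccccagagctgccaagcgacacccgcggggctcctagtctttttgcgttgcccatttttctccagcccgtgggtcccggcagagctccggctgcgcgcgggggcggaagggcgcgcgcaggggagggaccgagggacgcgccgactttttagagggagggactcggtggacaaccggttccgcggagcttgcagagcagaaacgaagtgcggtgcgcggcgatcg

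The motifs were TGACG, the core of the cAMP response element, its full form TGACGTCA, which contains that core, the AP-1 site TGANTCA, the variant TGACATCA known from the Jun promoter, the TATA box core TATAAA, the box CCAAT bound by NF-Y, and, by name, the CArG box bound by SRF and the MEF2 site. The Fos window held TGACG with its first base 129 and 66 bases before the start, and TATAAA 33 bases before it. The Fosb window held TGACG 60 bases before the start used for it, which places this match inside the gene's RefSeq span. In the Jun window, CCAAT lay 65, TGACATCA 45 and a MEF2 site 33 bases before the start. The windows of Fosl2, Jund and Batf3 held none of the motifs. The RefSeq start of Jund at 70697739 lies upstream of the GENCODE M21 start at 70698949. Its window is that of the RefSeq start and does not reach the GENCODE start, so the lack of a match says nothing of the sequence there. A window was found for 8 of the 9 genes (not for Fosl1), and TGACG was in 4 of them (Fos, Fosb, Junb and Batf), against 20.8% of 32851 RefSeq promoters. TGANTCA and TGACGTCA were in 0 of the 8, against 7.81% and 1.79% of all promoters, and so was the CArG box, against 1.63%. TATAAA was in Fos and Junb (13.6% of all promoters), CCAAT in Jun and Junb (37.4%), TGACATCA only in Jun (3.62%), and the MEF2 site only in Jun (3.19%). A match, or the lack of one, describes the letters of these windows and no more. Sites more than 250 bases before the start were not searched, so no match to the CArG box does not mean that Fos lacks one.

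Among the mRNAs, the genes also differed in the pentamer ATTTA, a core of the AU-rich elements that mark short-lived transcripts. In the 3′ untranslated region of the GENCODE M21 transcript chosen for each gene, Fos held 4 in 815 bases, Jun 4 in 1233 bases, Junb 2 in 485 bases and Fosl2 8 in 4653 bases. Fosb, Fosl1 and Jund held 1 each, and Batf and Batf3 held none. Per kilobase this is 4.91 in Fos, 4.12 in Junb, 3.24 in Jun, 1.88 in Jund, 1.72 in Fosl2, 1.57 in Fosl1 and 0.47 in Fosb, against a median of 1.297 over 13527 genes. Fos, which fell most, held ATTTA at 4.91 per kilobase, but Fosb, with the next largest fall, held it at 0.47. Junb, with a log2 change of only -0.18, held it at 4.12, and Fosl2, which rose, at 1.72. Whether ATTTA bears on these changes was not tested. The 30-base window with the most ATTTA is shown for the 3 genes in which it held 2, with ATTTA in capitals.
Fos, chr12:85477090-85477119, plus strand: aacgtttttattgtgttttcaATTTATTTA
Jun, chr4:95049210-95049239, minus strand: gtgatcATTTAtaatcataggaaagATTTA
Fosl2, chr5:32156858-32156887, plus strand: agaagaaattgacATTTAttttattATTTA

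The values are reads per gene scaled by 1 factor per sample, called normalised read counts, from 22.3 M, 36.7 M and 23.9 M reads assigned to genes in toyocamycin and 25.5 M, 27.0 M and 26.9 M in Control. At this depth 3 reads, the smallest level treated as detectable, are 2.54 to 3.96 normalised reads in toyocamycin and 2.63 to 2.72 in Control. In bulk samples, fewer cells with a transcript and less of it per cell cannot be told apart. The ILC2 label was checked against its markers. Gata3 averaged 65663 ± 5330 normalised reads in toyocamycin and 32470 ± 676 in Control (SD, n = 3 each), and Il1rl1, the IL-33 receptor, 126000 ± 4590 and 104890 ± 2030 (log2 change 0.26, but -0.09 with equal totals). Rora averaged 18477 ± 711 in toyocamycin and 1414 ± 117 in Control (log2 change 3.71), Klrg1 4152 ± 217 and 10022 ± 233 (log2 change -1.27), and Il17rb 329 ± 31.8 and 400.5 ± 12.4 (log2 change -0.29, a call that ended in 7 alternatives). All 5 were above the floor in every sample. The 10 ILC2 markers summed to 295100 to 321700 in toyocamycin and 437300 to 449800 in Control, with 3 higher and 7 lower, and the genes that fell included Tph1 (log2 change -3.34) and Il7r (log2 change -1.58). Markers of NK cells and ILC1s summed to at most 5.28 normalised reads in toyocamycin and 9.65 in Control. Those of mast cells summed to at most 5.28 and 13.2, and those of B cells to at most 16.1 and 27.2. Ifng and Fcer1a were at 0 throughout. Cpa3 of mast cells was lower (log2 change -1.78), but its toyocamycin mean of 1.445 was below the floor and its call ended in 8 alternatives. T cell markers summed to 293 to 354 in toyocamycin and 243 to 291 in Control, where 2 of 7 were higher (Cd3g and Trac) and 2 lower (Cd3e and Cd3d). The call of Cd3g ended in 7 alternatives, and that of Cd3d, with a toyocamycin mean of 0.88, ended in 4. Stromal and endothelial markers summed to 629 to 763 in toyocamycin and 1073 to 1275 in Control, where 1 of 4 was lower (Pecam1) and 3 did not pass. Macrophage and dendritic cell markers (1063 to 1547 and 877 to 1287), ILC3 markers (168 to 199 and 187 to 207) and epithelial markers (197 to 217 and 190 to 248) overlapped between the groups in their sums. Within these lists Cd68 of macrophages was higher (log2 change 0.60), 1 of 5, and of 3 ILC3 genes tested Il17a was higher (log2 change 0.84) and Il22 lower (log2 change -1.41), whereas 0 of 5 epithelial genes were called. Markers other than the first 5 ILC2 genes were named after their values were seen. The part of any of these cells in the AP-1 values was not tested.

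In the FOS subfamily, Fosl2 (chromosome 5, 32136472 to 32157840, GRCm38) encodes FRA-2, a FOS protein without the C-terminal activation domain of c-FOS. It had 28092, 30257 and 28766 normalised reads in toyocamycin samples 1 to 3 and 4704, 4852 and 4522 in Control samples 1 to 3. The lowest toyocamycin sample was far above the highest Control sample, and the spread within each group was small. The means were 29038 ± 1108 in toyocamycin and 4693 ± 166 in Control (SD, n = 3 each), a log2 change of 2.63 (SE 0.050, adjusted p = 1.77e-19 in limma). By size of change Fosl2 ranked 319 of 16223 from the highest.

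Fos (chromosome 12, 85473890 to 85477274) encodes c-FOS, the founding member and a classical immediate early gene. It had 854, 1073 and 1155 normalised reads in the toyocamycin samples and 6254, 6355 and 6683 in the Control samples. The groups did not overlap, and the highest toyocamycin value was far below the lowest Control value. The means were 1027 ± 155 and 6431 ± 225 (toyocamycin and Control, SD, n = 3 each), a log2 change of -2.66 (SE 0.081, adjusted p = 5.24e-17 in limma). This placed Fos 539 from the lowest of all genes tested.

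Fosb (chromosome 7, 19302696 to 19310118), which encodes FOSB and a shorter isoform that gene-level counts do not separate, fell as well. It had 198, 248 and 340.0 normalised reads in toyocamycin and 1073, 1144 and 1129 in Control. Again no toyocamycin sample reached the Control range. The fall was 4.26-fold, with means of 262 ± 72.0 in toyocamycin and 1115.0 ± 37.3 in Control (log2 change -2.12, SE 0.14, adjusted p = 8.79e-12 in limma).

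Fosl1 (chromosome 19, 5447698 to 5455938), which encodes FRA-1, was close to the limit of detection. Its normalised reads were 9.24, 23.7 and 24.3 in toyocamycin and 21.7, 20.2 and 34.2 in Control, which are 7, 28 and 20 reads and 24, 23 and 39 reads. The groups overlapped, and the log2 change of -0.47 (95% interval -1.44 to 0.50, adjusted p = 0.397 in limma) leaves room for a change in either direction. In the GENCODE M21 annotation the span of Fosl1 overlaps that of Ccdc85b on the other strand. Whether their exons overlap was not examined. The sources used here do not give the strand setting of the counting, so reads in a shared stretch cannot be told apart.

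**Figure D1:**
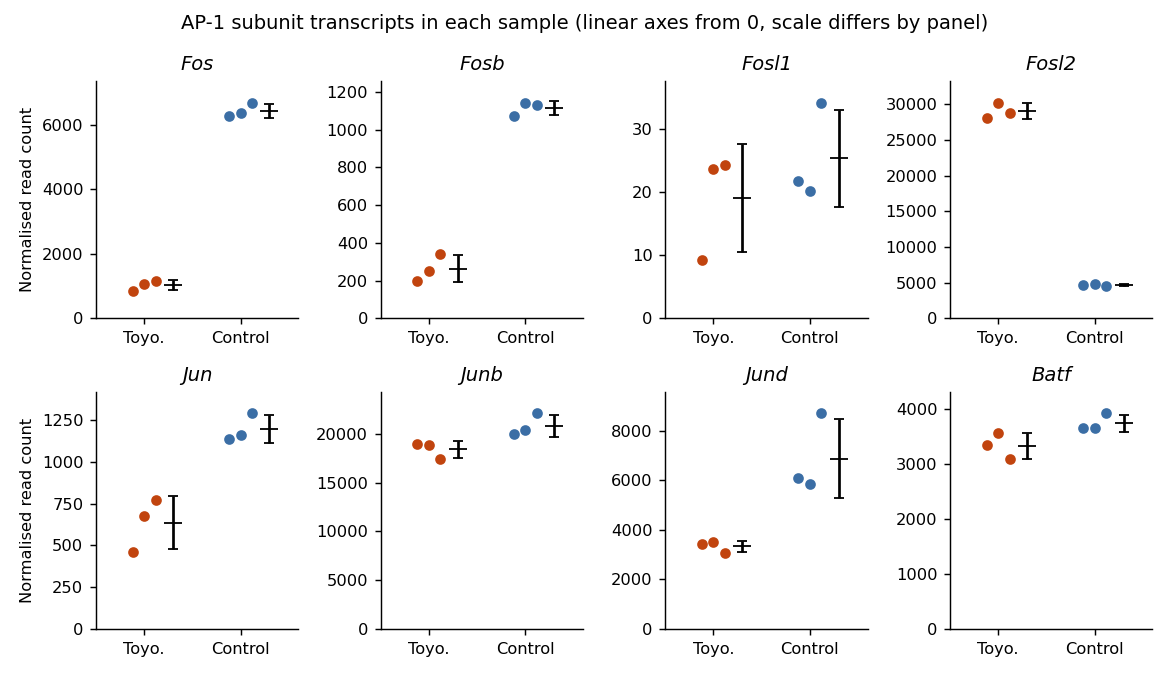
Normalised read count of the 8 AP-1 genes with reads, on linear axes that start at 0 and differ in scale. Points are the 3 toyocamycin samples (left) and the 3 Control samples (right), and the bars beside them give the mean ± SD. The groups are apart in every panel but that of Fosl1, with Fosl2 high in toyocamycin and the others high in Control.

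The make-up of FOS transcripts differed between the groups. The ratio of Fosl2 to Fos reads was 32.9, 28.2 and 24.9 in the toyocamycin samples and 0.752, 0.764 and 0.677 in the Control samples. On the log2 scale it averaged 4.83 ± 0.20 in toyocamycin and -0.45 ± 0.10 in Control, a difference of 5.29. An exact two-sided permutation test gave p = 0.1, the smallest that 3 against 3 samples allow (also 0.1 after adjustment over the 3 ratios computed, which were chosen after the values were seen). Divided by transcript length, which allows levels of different genes to be compared, Fosl2 made up 88.7% ± 1.6 of FOS transcripts in toyocamycin and 17.6% ± 0.93 in Control. Fos made up 9.71% ± 1.2 in toyocamycin and 74.8% ± 0.94 in Control, and Fosb 1.38% ± 0.36 and 7.23% ± 0.17. The summed FOS level per kilobase was 5009 ± 231 normalised reads in toyocamycin and 4077 ± 98.9 in Control. It thus differed by 1.23-fold while its main component differed between the groups. The sum in reads, without regard to length, was 30347 ± 1220 and 12264 ± 183, because the Fosl2 transcript is long (6.537 kb, against 2.108 kb for Fos). All annotated exons together hold 9680 bases in Fosl2 and 2352 in Fos. The shares and the sum per kilobase therefore depend on the transcript chosen, which the SDs do not cover.

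**Figure D2:**
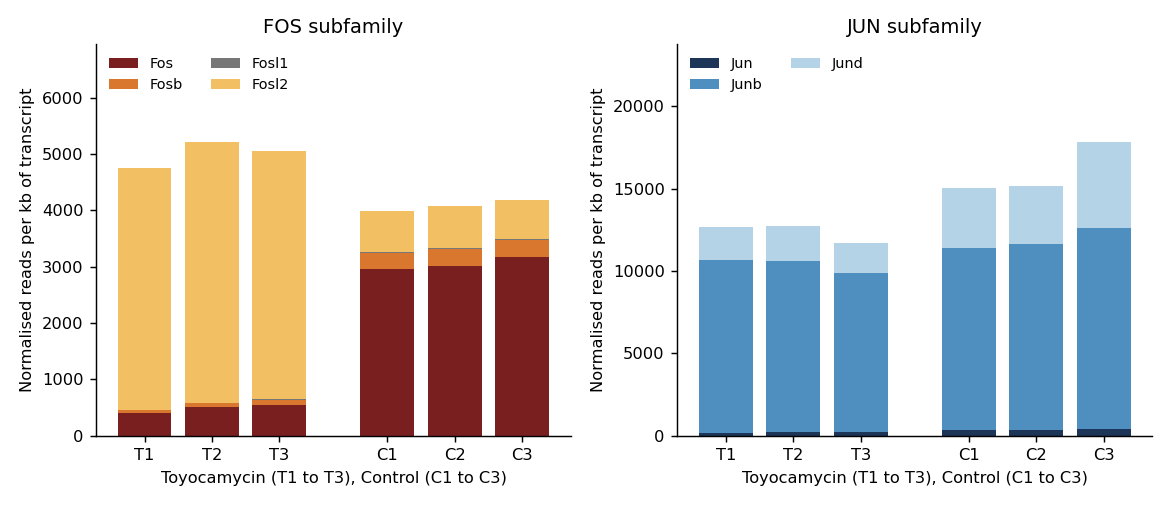
Normalised reads per kilobase of transcript, stacked by gene, for the FOS subfamily (left) and the JUN subfamily (right) in each toyocamycin sample (T1 to T3) and Control sample (C1 to C3). FOS transcripts are mostly Fosl2 in toyocamycin (88.7%) and mostly Fos in Control (74.8%), and JUN transcripts are mostly Junb in both.

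In the JUN subfamily, Junb was the most abundant AP-1 transcript per kilobase in both groups and was slightly lower in toyocamycin. The gene (chromosome 8, 84976909 to 84978748) encodes JUNB, which activates Il4 in Th2 cells. It had 18990.5, 18877 and 17427.5 normalised reads in toyocamycin and 19952, 20432 and 22108.5 in Control. The highest toyocamycin value lay below the lowest Control value by a small margin. The means were 18432 ± 871 and 20831 ± 1132 (toyocamycin and Control, SD, n = 3 each), a log2 change of -0.18 (SE 0.054, adjusted p = 0.0066 in limma).

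Jun (chromosome 4, 95049036 to 95052222), which encodes c-JUN, had 462, 675 and 772 normalised reads in toyocamycin and 1139.8, 1158 and 1291 in Control. The toyocamycin samples were all lower, with a wider relative spread (24.9% of the mean, against 6.89% in Control). The fall was 1.88-fold, with means of 636 ± 159 in toyocamycin and 1196 ± 82.5 in Control (SD, n = 3 each, log2 change -0.94, SE 0.13, adjusted p = 1.06e-06 in limma).

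Jund (chromosome 8, 70697739 to 70700616) encodes JUND, the JUN protein usually present in resting cells. It had 3422, 3491 and 3068 normalised reads in toyocamycin and 6076, 5854 and 8703 in Control. The groups did not overlap, but Control sample 3 stood above the other Control samples. The means were 3327 ± 227 in toyocamycin and 6878 ± 1585 in Control (SD, n = 3 each). The log2 change was -1.03 (SE 0.099, adjusted p = 7.53e-09 in limma), or -0.84 without Control replicate 3. Jund was 1 of 3 AP-1 genes lower by a log2 change of at least 1, beside Fos and Fosb, but fell short of that size without this sample or without toyocamycin replicate 3 (-0.97). Jun, in contrast, passed it without toyocamycin replicate 3 (-1.10) and with equal totals (-1.29), so that count is not firm. Among all genes tested 20.5% were lower and 17.0% higher by at least that much. In GENCODE M21 Jun, Junb and Jund each overlap a gene on the other strand (Junos, Prdx2 and Gm11175), so the same limit holds for their reads as for Fosl1.

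Per kilobase, Junb was 82.3% ± 0.40 of JUN transcripts in toyocamycin and 72.1% ± 3.2 in Control, Jund 16.1% ± 0.37 and 25.5% ± 3.3, and Jun 1.62% ± 0.46 and 2.35% ± 0.069. The ratio of Junb to Jund reads was 5.55, 5.41 and 5.68 in toyocamycin and 3.28, 3.49 and 2.54 in Control. The ratio of Junb to Jun reads was 41.1, 28.0 and 22.6 in toyocamycin and 17.5, 17.6 and 17.1 in Control. Both ratios were higher in 3 of 3 toyocamycin samples, with differences of 0.85 and 0.76 on the log2 scale (exact two-sided permutation p = 0.1 for each, the smallest possible). The summed JUN level per kilobase was 12383 ± 579 in toyocamycin and 16014 ± 1590 in Control.

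In the BATF subfamily, Batf (chromosome 12, 85686720 to 85709087), which encodes a bZIP protein needed for Th2, Th17 and ILC2 cytokine programmes in mice, had 3335, 3556 and 3085 normalised reads in toyocamycin and 3649, 3644 and 3914 in Control. The groups were apart, with 3556 as the highest toyocamycin value and 3644 as the lowest Control value. The means were 3325 ± 236 and 3736 ± 155 (toyocamycin and Control, SD, n = 3 each), a log2 change of -0.17 (SE 0.060, adjusted p = 0.017 in limma). The call ended without toyocamycin replicate 3 (-0.12, adjusted p = 0.0985 in limma) and without Control replicate 3 (-0.14, adjusted p = 0.0855). Over the 15 alternatives tried, the adjusted p of Batf in limma, edgeR or DESeq2 ran from 2.09e-08 to 0.0985. Batf3 (chromosome 1, 191098414 to 191108943), known for its need in cross-presenting dendritic cells, had 0 reads in all 6 samples, so that its level was below the 3 reads treated as detectable.

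**Figure D3:**
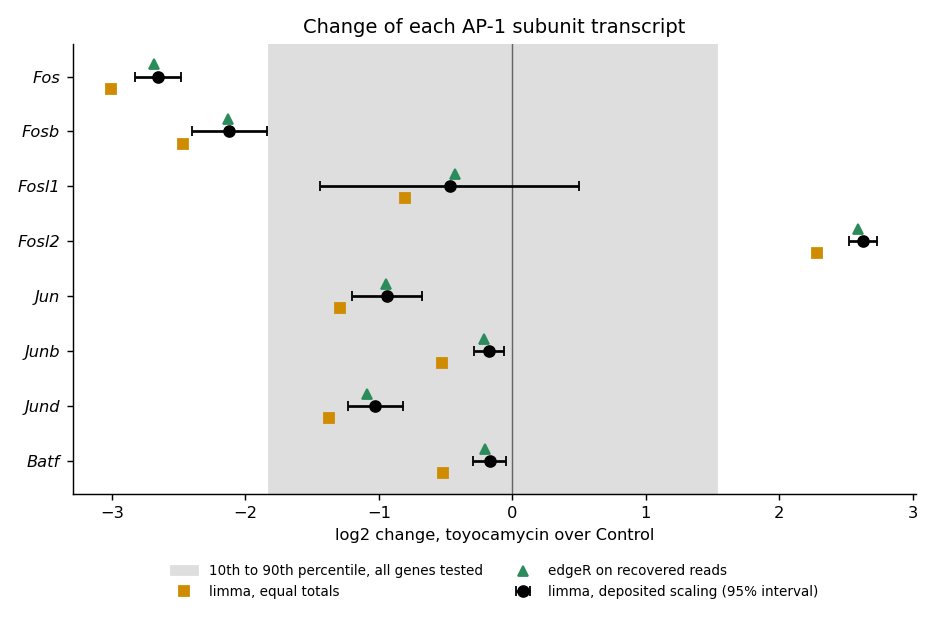
Log2 change, toyocamycin over Control, of the 8 AP-1 genes tested. Black points with bars are limma estimates with 95% intervals, squares the same fit after setting the samples to equal totals, triangles edgeR on recovered reads, and the grey band spans the 10th to 90th percentile of all genes (-1.82 to 1.53). Fosl2 lies above the band and Fos and Fosb below it.

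The directions held under other scalings, all of which set a gene against the other genes of its sample. A change in the amount of RNA per cell would not be seen in any of them. With the samples set to equal totals, all genes had a median log2 change of -0.35, and changes are to be read relative to it. The log2 change of Fosl2 was then 2.28, that of Fos -3.00, that of Junb -0.53 and that of Batf -0.52, with the calls of all 8 tested AP-1 genes as before, while 24.9% of all genes were called higher and 42.5% lower. Quantile normalization, edgeR and DESeq2 each called 1 AP-1 gene higher and 6 lower as well. With quantile normalization, where all genes had a median log2 change of 0.03, Junb had a log2 change of -0.66 and Batf of -0.62, over 3 times those with the deposited scaling, and Fosl2 one of 2.14. Of all genes, quantile normalization called 33.0% higher and 31.8% lower, edgeR 38.5% and 41.2%, and DESeq2 30.5% and 29.8%. Groups did not overlap in 7 of the 8 AP-1 genes tested, against 69.1% of all genes tested.

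Ordered by level per kilobase, toyocamycin-treated ILC2s had Junb (10190 ± 482), Fosl2 (4442 ± 169), Batf (3482 ± 247), Jund (1995 ± 136), Fos (487 ± 73.6), Jun (199.6 ± 49.7), Fosb (69.3 ± 19.0) and Fosl1 (10.2 ± 4.57 normalised reads per kilobase, SD, n = 3). No neighbours in this order overlapped. In Control the order was Junb (11520.0 ± 626), Jund (4123 ± 950.0), Batf (3912 ± 162), Fos (3051 ± 107), Fosl2 (718 ± 25.3), Jun (375 ± 25.9), Fosb (295 ± 9.87) and Fosl1 (13.6 ± 4.13). There, Jund and Batf overlapped and no other neighbours did. Fosl2 thus ranked 2 in toyocamycin and 5 in Control, whereas Fos ranked 5 in toyocamycin and 4 in Control. Both orders depend on the transcript chosen for each gene, which the SDs do not cover. The transcript used for Batf, for example, is 0.955 kb long, whereas all its annotated exons hold 1406 bases.

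Among 11 other bZIP genes that can pair with AP-1 proteins, 7 were higher, 1 was lower and 3 did not pass (median log2 change 0.64), or 5 higher and 1 lower with equal totals. Of all genes 32.8% were higher and 33.1% lower, or 24.9% and 42.5% with equal totals. Mafk, a small MAF protein, averaged 4229 ± 196 normalised reads in toyocamycin and 1205 ± 43.8 in Control (log2 change 1.81). Atf2, a JUN partner that JNK and p38 phosphorylate, averaged 4620 ± 185 and 1876 ± 98.3 (log2 change 1.30). Mafa had a log2 change of 1.34 at a low level of 25.1 ± 8.0 in toyocamycin and 10.6 ± 7.76 in Control (adjusted p = 0.033 in limma), and that call ended in 9 of the alternatives. Jdp2, a repressor that pairs with JUN proteins, was the gene that fell, with 1676 ± 61.1 in toyocamycin and 2496 ± 99.0 in Control (log2 change -0.57). Jdp2 lies between Fos and Batf on chromosome 12, 121.4 kb from Fos and 46.8 kb from Batf. The IRF partners of BATF moved apart. Irf4 averaged 7264 ± 214 in toyocamycin and 4936 ± 175 in Control (log2 change 0.56, call ended with quantile normalization), and Irf8 103 ± 12.1 and 205 ± 17.4 (log2 change -1.0).

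Of 21 MAP kinases and kinases above them, 20 were tested, of which 15 were higher, 4 lower and 1 did not pass (median log2 change 0.62; 15 higher and 5 lower with equal totals), against 32.8% higher and 33.1% lower of all genes. Map3k1, which acts above JNK, averaged 6198 ± 341 normalised reads in toyocamycin and 1995 ± 86.9 in Control. Mapk8, which encodes the JUN kinase JNK1, averaged 1457 ± 55.4 in toyocamycin and 488 ± 34.3 in Control. The log2 changes of these genes were 1.63 and 1.58. The genes that fell most were Map2k2, which encodes MEK2 (log2 change -1.35), Mapk3, which encodes ERK1 (-1.25), and the p38 gene Mapk11 (-0.93). Mapk10 had no read.

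Of 11 factors known to bind Fos or Jun promoters, 7 were higher, 2 lower and 2 did not pass (median log2 change 0.70; 6 higher and 3 lower with equal totals), against 32.8% higher and 33.1% lower of all genes. Elk4, an ETS factor that binds with SRF, averaged 5351 ± 207 in toyocamycin and 1014 ± 84.1 in Control (log2 change 2.40). Mef2a and Mef2d had log2 changes of 1.63 and 1.49. The other 2 ETS partners of SRF fell, Elk1 to 237 ± 31.6 in toyocamycin, against 641 ± 76.9 in Control (log2 change -1.44), and Elk3 to 901 ± 27.7, against 2182 ± 54.0 (log2 change -1.28). Of 6 ubiquitin ligases or adaptors reported to act on AP-1 proteins, 3 were higher and 3 lower (median log2 change 0.02; 2 higher and 3 lower with equal totals), against 32.8% higher and 33.1% lower of all genes. Cop1, which targets c-JUN, had a log2 change of 1.81 and Fbxw7 of 0.71. Huwe1 had a log2 change of 0.37, and 0.02 with equal totals, where its call ended, as it did with quantile normalization. Nedd4 averaged 2040.2 ± 93.9 in toyocamycin and 9729 ± 277 in Control (log2 change -2.25). Det1 had a log2 change of -0.42, a call that ended with quantile normalization, and Itch, which targets JUNB, had one of -0.34.

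Of 24 genes with well-known AP-1 sites, 20 were tested, of which 3 were higher, 10 lower and 7 did not pass (median log2 change -0.58; 2 higher and 11 lower with equal totals), against 33.1% lower of all genes, or 42.5% with equal totals. Among the 10, the call of Plau, a low gene named after its values were seen, ended in 8 alternatives. Il2, Ifng and Ccl2 had no read in any sample. The genes that fell most were the cytokine genes Il6 (log2 change -3.78), Il3, which had no read in toyocamycin and 10.1 ± 2.26 normalised reads in Control, and Il13 (log2 change -2.80). The genes that rose were Fasl, which encodes the death ligand FASL, Spp1, which encodes osteopontin, and Cd44, a receptor for hyaluronan. Fasl averaged 42.8 ± 12.3 in toyocamycin and 3.23 ± 3.31 in Control, close to the floor. Spp1 averaged 71.9 ± 31.5 and 31.5 ± 13.5 (log2 change 1.16), a call that ended with equal totals and without toyocamycin replicate 3. Cd44 averaged 11812 ± 351 and 6594 ± 34.9 (log2 change 0.84).

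**Figure D4:**
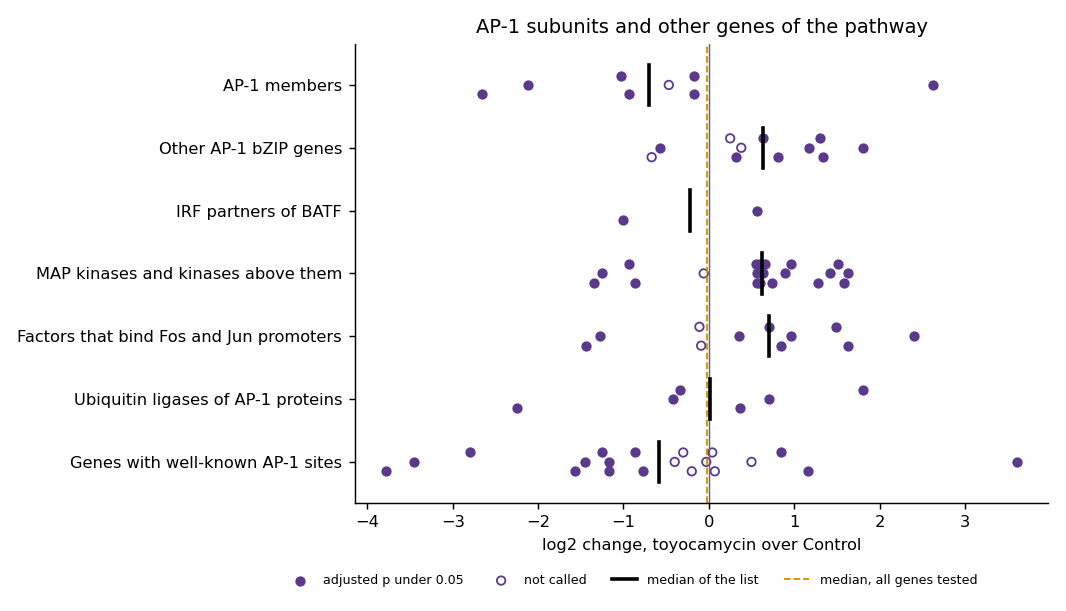
Log2 change, toyocamycin over Control, of each tested gene in the AP-1 family and in the other lists of the pathway. Filled points were called and open points were not, black bars are list medians, and the dashed line is the median of all genes tested (-0.03). The medians are -0.70 for the AP-1 family, 0.62 for the kinases, 0.70 for the promoter-binding factors and -0.58 for genes with AP-1 sites.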

How the data were processed

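RNA of 6 samples was sequenced, 3 with toyocamycin and 3 Control. Per the submitters' processing notes, cutadapt 4.7 and FastQC were among the authors' tools and mm10 was the build. The sources used here do not give the aligner, counter or strand setting. The deposited signal is named FPKM, but with a tolerance of 0.01 reads 100% of its values are whole multiples of 1 read per sample, the same for every gene, so reads were recovered. No 2 replicates agreed within sampling noise (the chi-square of their reads over genes was 3.87 to 7.39 times its degrees of freedom), so each counted as 1 sample.

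Values were tested as log2(normalised read count + 1), which understates the change of low genes, with limma 3.58.1 (R 4.3.3), two-sided, a mean-variance trend and Benjamini-Hochberg adjustment over 16223 genes. The scripts were tested on simulated data in which far fewer genes changed than were called here, so that test does not cover a change this broad. Alternatives were edgeR 4.0.16, DESeq2 1.42.0, equal totals, quantile normalization, pseudocounts of 0.1 and 4, other filters, a replicate block and leaving out each sample. Read floors cover counting error only. All 132 list entries (AP-1 genes, their partners, kinases, promoter-binding factors, ligases, genes with AP-1 sites, and cell markers) matched the table. Members and lists were chosen with earlier results of these data known. Named from each list were up to 3 genes with the largest called change in each direction; 1 gene under this rule is not reported here. Lengths and 3′ regions came from 1 coding transcript per gene in GENCODE M21 (the best APPRIS rank, then the longest), and promoters from RefSeq, both GRCm38.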

Additional observations from a re-analysis of the deposited data

How the results depend on the processing

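Over 15 alternatives for each of the 8 tested AP-1 genes, 118 of 120 log2 changes kept their direction and their side of the threshold. The exceptions were those of Batf without toyocamycin replicate 3 and without Control replicate 3; the cause was not tested. Over the fits without 1 of the samples, the change of Batf (log2) ran from -0.22 to -0.12 and that of Jun from -1.10 to -0.73. Per kilobase of transcript, Fosl2 was 88.7% of FOS reads in toyocamycin and 17.6% in Control, in place of 95.7% and 38.3% of reads per gene, which follows from the length of its transcript. With equal totals 4040 genes were higher and 6897 lower, against 5316 and 5374 with the deposited scaling. Same-numbered samples did not deviate together (correlations of -0.008, 0.023 and -0.041), so the numbers are not taken to pair samples; with the replicate block, 5272 genes were higher and 5298 lower, the AP-1 genes again gave 1 higher and 6 lower, and Batf kept a log2 change of -0.17. Depth limits Fosl1 and Batf3.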

Other observations

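The genes whose values over the 6 samples were most like those of Fosl2 and Fos were sought among 9913 other genes with a mean of at least 100 normalised reads. Likeness was the root-mean-square difference of log2 values after subtracting each gene's own mean, which over 6 samples in 2 groups mostly measures an equal difference between the groups. Nearest to Fosl2 were Ipmk, which encodes an inositol phosphate kinase (0.042), the histone demethylase gene Kdm5b (0.042) and the zinc finger gene Zbtb44 (0.046). Ipmk averaged 8426 ± 303 normalised reads in toyocamycin and 1333 ± 29.5 in Control, and Kdm5b 11420.0 ± 635 and 1860.0 ± 68.5 (SD, n = 3 each). Nearest to Fos were Nagk, which encodes a kinase of N-acetylglucosamine (0.063), the peroxisomal gene Pxmp4 (0.075) and the DNA repair gene Fignl1 (0.076). Fignl1 averaged 252.5 ± 40.4 in toyocamycin and 1468 ± 9.02 in Control, and Nagk 129.7 ± 16.3 and 874.7 ± 62.6.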
